A study of Homo sapiens with 8 samples.

Results

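Enzymes that metabolise drugs and other foreign compounds were examined in SAS cells given a mimic of miR-874-3p, miR-210-3p or miR-629-3p, or a negative control miRNA (NC). The members were every gene probe of the array whose gene name placed it in 1 of 5 enzyme families: the cytochromes P450 (CYP), the aldo-keto reductases of family 1 (AKR1), the aldehyde dehydrogenases (ALDH), the cytosolic sulfotransferases (SULT) and the cytosolic or mitochondrial glutathione S-transferases (GST). This rule took 175 of 58201 probes and 125 of 43317 gene names. No measured value entered the rule. By RefSeq biotype, 109 of the names were protein-coding genes, 11 were transcribed pseudogenes and 5 were long non-coding RNAs that run antisense to a member.

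SAS is an established line of human tongue squamous carcinoma. The study asked which miRNAs protect these cells from cisplatin, and it profiled total RNA after transfection with mimics. Each of the 4 groups had 2 one-colour arrays, all 8 on 1 slide. According to the sample labels, RNA was taken at 48 hours from SAS cells. The study's text instead gives a shorter interval and names the cells SAS/GFP, a derivative that carries green fluorescent protein and served as the control line, so the interval behind these values is not settled. NC was itself transfected, and no untransfected or cisplatin-treated array was analysed here. The labels do not say that the arrays of a group came from separate cultures, so p-values measure the spread between these arrays, which may be technical.

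Phase I enzymes add or expose a reactive group on a compound. CYP enzymes do so by oxidation with electrons from NADPH, AKR1 enzymes reduce aldehydes and ketones, and ALDH enzymes oxidise aldehydes to acids. Phase II enzymes then attach a polar group, which for SULT enzymes is sulfate and for GST enzymes is glutathione, the thiol that also binds platinum drugs. Many of the genes are inducible, with the aryl hydrocarbon receptor (AHR) best known for the CYP1 genes and the oxidative stress factor NRF2 for AKR1 and GST genes.

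The 3 mature miRNAs are shown because each was supplied as a mimic to 1 group. Sequences are the RefSeq mature forms on GRCh38.p14, and capitals mark the seed (bases 2 to 8), the part that pairs with target messages. Their genes lie at chr15:70079387-70079408, chr11:568112-568133 and chr5:137647582-137647603, all on the minus strand.
miR-629-3p: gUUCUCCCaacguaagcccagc
miR-210-3p: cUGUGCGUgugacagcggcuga
miR-874-3p: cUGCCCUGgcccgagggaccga
No seed was shared between them.

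A level here is the log2 of a probe's background-subtracted signal relative to the array's 75th percentile, so 0 is the brightness that 75 percent of the gene probes did not exceed. Levels compare arrays for 1 probe and are not compared between genes, because probes differ in response. A probe is called detected where the scanner software found it well above background. Between 42.2% of gene probes (NC replicate 2) and 49.8% (miR-629-3p replicate 1) were detected per array, and 69 to 83 of the 175 enzyme probes were. Detection was thus highest with miR-629-3p and lowest with NC, and whether this affects members seen in 1 group only was not tested. All 11 squamous epithelium markers were detected on all 8 arrays, while 2 of 7 fibroblast, 2 of 5 leukocyte and 2 of 7 hepatocyte markers passed the filter. Albumin did not.

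Of the 125 enzyme names, 59 had a probe that both arrays of some group detected and were tested, each by its brightest probe. The tested names were 23 of 63 CYP, 7 of 11 AKR1, 15 of 21 ALDH, 3 of 12 SULT and 11 of 18 GST, and 45 of the 59 were detected on all 8 arrays by the probe used. No array detected any probe of another 45 names. Among these were CYP26A1 and CYP26B1, which degrade retinoic acid, and CYP4F12, SULT1E1, SULT2B1, GSTM2 and GSTM4. CYP4F11 and ALDH1A1 were each detected on some arrays but not on both of any group by the same probe. A gene passed when a group with a raised level was detected, so the 59 are not a neutral sample of the 125. In 7 of them, AKR1C1, AKR1C4, CYP2A13, CYP3A5, CYP4A11, GSTA2 and GSTA4, both arrays of 1 group alone detected the probe used, so the filter favoured a difference in that direction. CYP1A2, a P450 that oxidises caffeine, was detected on all 8 arrays but not tested, because 1 array had an outlier spot, and its other 7 levels lay between -2.12 and -1.73.

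Across the 4 groups, 21 of the 59 members differed by the F test of limma at an adjusted p below 0.05, beside 25.7% of all 21283 genes tested. Against NC, 16 members passed with miR-629-3p, where 17.3% of all genes did. With miR-210-3p 8 passed (6.75% of all genes), and with miR-874-3p 1 passed (0.413% of all genes). Leaving aside the 7 members that both arrays of 1 group alone detected, 52 remained. Of these, 9 rose and 4 fell with miR-629-3p, 3 rose and 3 fell with miR-210-3p, and 0 passed with miR-874-3p. The 3 comparisons share the same 2 NC arrays. Under the study's kind of rule, an unadjusted p below 0.05 and at least a 2-fold change, the limma fit called 9, 5 and 4 members, beside 5.5%, 3.27% and 2.02% of all genes, and 11 between miR-629-3p and miR-210-3p, beside 5.62%. The median log2 change of the 59 members was 0.10, -0.09 and -0.02 in that order, beside 0.07, 0.09 and 0.00 over all genes.

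**Figure D1:**
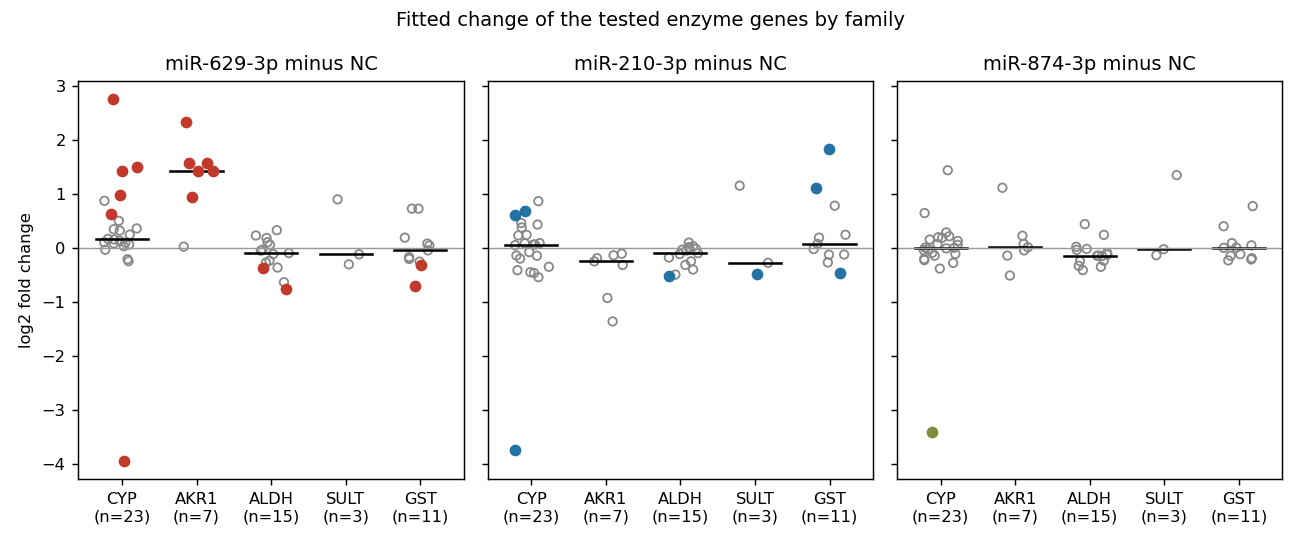
Log2 fold change against NC (vertical axis) of each tested enzyme gene, by family, in the 3 groups. Filled circles passed at an adjusted p below 0.05, open circles did not, and bars are family medians; 6 of 7 AKR1 genes are filled with miR-629-3p, 2 of them detected in that group alone, and the lowest point in each panel is CYP3A5, whose fitted value is not a bound.

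In the AKR1 family AKR1B1, AKR1B10, AKR1B15 and AKR1C3 rose with miR-629-3p, by fitted log2 changes from 0.95 to 1.58. They were 4 of the 5 members that did not enter through 1 group alone, where higher calls made up 11.3% of all genes, and the other member, AKR1A1, did not pass. AKR1C1 and AKR1C4 were tested only because both miR-629-3p arrays detected them, so the filter fixed their direction and they add no support to the count. Against miR-210-3p all 5 were higher with miR-629-3p, where higher calls were 10.1% of all genes. No AKR1 member passed against NC with miR-210-3p or miR-874-3p. Over the alternative settings, some with 1 array left out, AKR1B1, AKR1B10, AKR1B15 and AKR1C3 kept their direction with miR-629-3p throughout. The call was kept in 19 of 21 settings for AKR1B1, 13 of 21 for AKR1B10, 13 of 20 for AKR1B15 and 10 of 21 for AKR1C3.

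AKR1B1, aldose reductase, which reduces glucose to sorbitol, had levels of 6.86 and 6.65 for miR-629-3p, 5.03 and 5.00 for miR-210-3p, 5.04 and 5.53 for miR-874-3p, and 5.42 and 5.23 for NC. Both miR-629-3p arrays lay above the other 6, which overlapped among themselves only between miR-874-3p and NC. The log2 change against NC was 1.43 ± 0.18 (SE, adjusted p = 0.00916).

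AKR1B10 reduces retinal and lipid aldehydes and is known from squamous carcinomas of smokers. Its levels were 0.74 and 0.55 for miR-629-3p, -2.49 and -2.10 for miR-210-3p, -0.29 and 0.65 for miR-874-3p, and -0.62 and -1.27 for NC. The miR-629-3p arrays were above both NC arrays but 1 miR-874-3p array lay between them, and both miR-210-3p arrays were the lowest of all 8. AKR1B10 rose by a log2 change of 1.58 ± 0.37 with miR-629-3p (adjusted p = 0.0394), and a further probe gave 1.56. The fitted values against NC were -1.35 with miR-210-3p (adjusted p = 0.0856, 95% interval -2.27 to -0.44) and 1.12 with miR-874-3p (adjusted p = 0.234). Its neighbour AKR1B15, a close paralogue, had levels of -0.38 and -0.67 for miR-629-3p and -1.69 and -2.52 for NC, a log2 change of 1.58 ± 0.32 (adjusted p = 0.0272). The probes of these paralogues, 36529 bases apart on chromosome 7, share no run of more than 5 of 60 bases. That compares the probes only with each other, so whether either probe also binds the paralogue's message was not tested.

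The AKR1C genes, which reduce steroids, prostaglandins and quinones, form a cluster on chromosome 10. AKR1C3, which makes testosterone and prostaglandin F, had levels of 1.91 and 1.72 for miR-629-3p, 0.82 and 0.54 for miR-210-3p, 0.61 and 1.28 for miR-874-3p, and 0.94 and 0.79 for NC. Only the miR-629-3p arrays stood apart from the rest, by a log2 change against NC of 0.95 ± 0.23 (adjusted p = 0.0463).
AKR1C1, which inactivates progesterone, was detected with miR-629-3p alone by the probe used. Its levels there were -2.23 and -2.43, and it was not well above background on the other 6 arrays, where the readings ran from -5.39 to -4.11. It was at least 1.47-fold higher than with NC (adjusted p = 0.0304) and at least 2.13-fold higher than with miR-210-3p (adjusted p = 0.0225). A bound of this kind sets the bright group's mean against the dimmest signal that counted as detected on the dim arrays. A second AKR1C1 probe was detected on 1 miR-629-3p array and on NC replicate 2, where it read 0.11.
AKR1C4, a liver steroid reductase, read -3.23 and -2.77 with miR-629-3p, and the probe used was not detected in the other groups. A further AKR1C4 probe was detected on 1 array, miR-874-3p replicate 1 (-2.78), and on no miR-629-3p array. AKR1C4 passed the test (adjusted p = 0.0318), but its mean there was below the dimmest signal that counted as detected on either NC array, so no fold is given. The dimmest signal that counted as detected was lower for miR-629-3p (-3.74 and -3.60) than for NC (-2.90 and -2.87).
AKR1A1, the general aldehyde reductase, was the member that did not pass, with a log2 change of 0.03 (95% interval -0.14 to 0.20). AKR1C2 had no probe under that name, and whether the AKR1C1 probe also binds its message was not tested. With normexp background correction the fitted log2 changes of the dimmer genes with miR-629-3p were smaller, at 0.84 for AKR1B10, 0.51 for AKR1B15, 0.29 for AKR1C1 and 0.11 for AKR1C4, and the last was no longer past the threshold (adjusted p = 0.19).

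**Figure D2:**
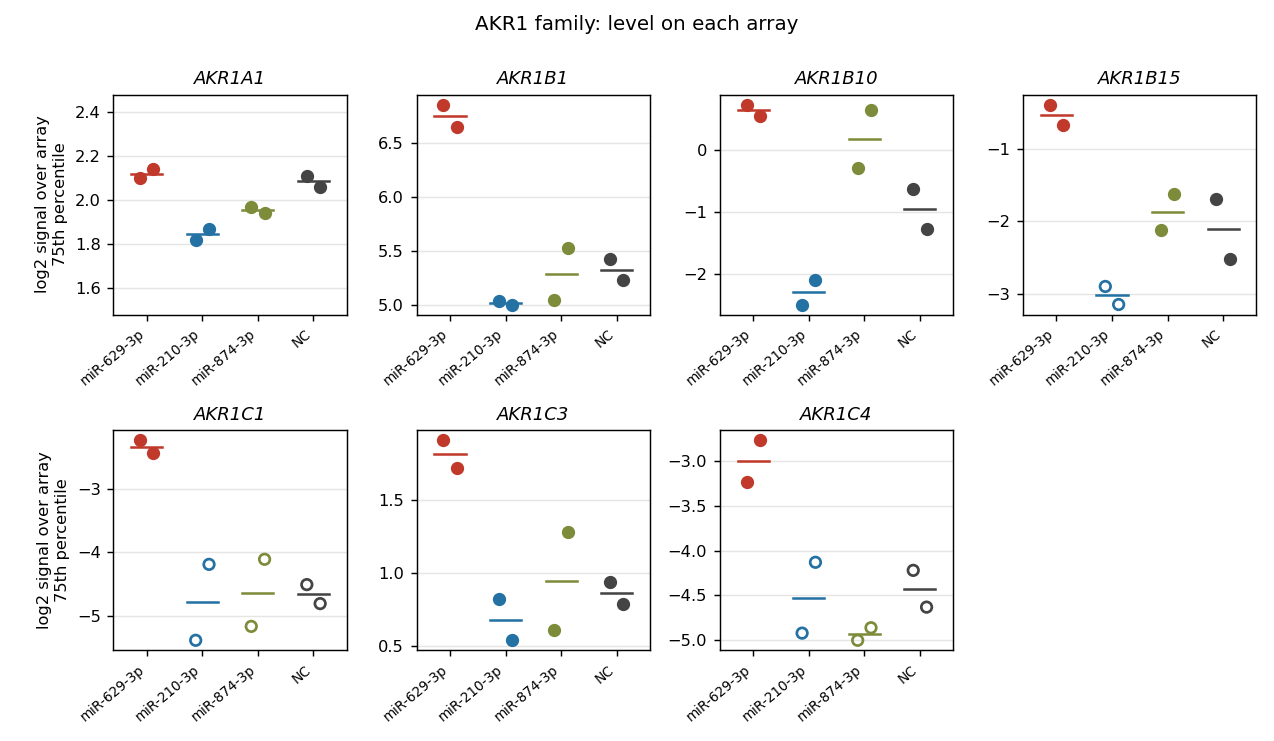
Level on each array (log2 signal over the array's 75th percentile) of the 7 tested AKR1 genes; circles are arrays and lines group means, and open circles mark groups whose 2 arrays did not both detect the probe. The miR-629-3p arrays are the highest 2 in every panel except AKR1B10, where 1 miR-874-3p array (0.65) lies between them, and AKR1A1, where 2.11 on an NC array lies between 2.10 and 2.14.

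The stretch before the transcription start is shown for AKR1C1 and AKR1C3 because the upstream sequences of these neighbours resemble each other. Both were called higher against NC in the same comparison, but the filter fixed the direction of AKR1C1, so a joint rise was not tested. The windows are the 250 bases up to the start, from RefSeq on GRCh38.p14, at chr10:4963165-4963414 (plus strand) and chr10:5094164-5094413 (plus strand, the downstream of 2 listed starts). Of the 59 tested names, 42 had such a window, AKR1B10 and AKR1B15 not among them. Both strands were searched for GCGTG (the core bound by the AHR complex), TGACNNNGC (the core of the antioxidant response element, bound by NRF2), CCAAT and TATAAA. Capitals mark every match.
AKR1C1: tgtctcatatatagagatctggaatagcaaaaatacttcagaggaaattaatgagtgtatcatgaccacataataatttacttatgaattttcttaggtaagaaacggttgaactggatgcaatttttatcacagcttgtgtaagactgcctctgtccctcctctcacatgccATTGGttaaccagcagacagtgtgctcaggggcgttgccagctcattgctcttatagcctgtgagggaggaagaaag
AKR1C3: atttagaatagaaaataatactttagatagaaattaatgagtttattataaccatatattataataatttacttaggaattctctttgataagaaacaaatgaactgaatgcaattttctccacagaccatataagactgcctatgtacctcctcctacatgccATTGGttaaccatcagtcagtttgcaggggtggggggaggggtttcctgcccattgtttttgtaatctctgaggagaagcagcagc
The only motif found in either was CCAAT on the minus strand, with its leftmost base 77 and 86 bases before the start. CCAAT occurs in 32.0% of all 35116 windows of this length. The antioxidant core, present in 10.9% of windows, has no match within these 250 bases. Aligned end to end, the windows were identical at 70.6% of positions, while the windows of these genes and of the CYP genes printed below matched at 43.2% to 49.8%.

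The CYP family split by member with miR-629-3p: 5 of 23 rose, 1 fell and 17 did not pass, where higher calls were 11.3% and lower calls 6% of all genes. The 5 that rose were CYP1A1, CYP1B1, CYP2B6, CYP3A7 and CYP24A1, and the lower 1 was CYP3A5. With miR-210-3p, CYP1A1 and CYP24A1 rose and CYP3A5 fell (4.83% of all genes were higher and 1.93% lower), and with miR-874-3p CYP3A5 fell, where lower calls were 0.197% of all genes. CYP3A5 was tested only because both NC arrays detected it, so the filter fixed its direction and it adds no support to these counts. Among the 20 CYP genes that did not enter through 1 group alone, no gene was lower in any comparison with NC.

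CYP1A1 and CYP1B1 oxidise polycyclic aromatic hydrocarbons and oestrogens and are the textbook targets of AHR. CYP1A1 levels were -1.49 and -1.38 for miR-629-3p, -2.26 and -2.08 for miR-210-3p, -2.68 and -2.61 for miR-874-3p, and -2.89 and -2.85 for NC. The 4 groups did not overlap, in that order from high to low. The fitted log2 change was 1.43 with miR-629-3p (95% interval 1.21 to 1.66, adjusted p = 0.00227) and 0.70 with miR-210-3p (95% interval 0.47 to 0.92, adjusted p = 0.0184). CYP1A1 was not well above background on the NC arrays, and because its NC readings lay just above the dimmest signal that counted as detected, no separate lower bound could be set. It was also higher with miR-629-3p than with miR-210-3p, by a log2 difference of 0.73 ± 0.09 (adjusted p = 0.00692), and against NC the miR-874-3p value was 0.22 (adjusted p = 0.314). With normexp background correction the fitted log2 changes of this dim probe were 0.38 and 0.15 for miR-629-3p and miR-210-3p, and the second was no longer past the threshold (adjusted p = 0.134; 0.0163 to 0.159 over all alternatives).
CYP1B1 read 3.89 and 3.58 for miR-629-3p, 1.69 and 1.85 for miR-210-3p, 2.07 and 2.96 for miR-874-3p, and 2.41 and 2.04 for NC. As for CYP1A1 the miR-629-3p arrays were above the other 6, but unlike for CYP1A1 the miR-210-3p arrays were the lowest. CYP1B1 rose by 1.51 ± 0.31 against NC with miR-629-3p (adjusted p = 0.0288), and a further probe gave 1.30 (adjusted p = 0.03). The antisense gene CYP1B1-AS1 had a log2 change of 0.37 by the probe used (adjusted p = 0.085) and of 2.31 by a further one (adjusted p = 0.0203).

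The upstream window of CYP1A1 (chr15:74725529-74725778, minus strand, GRCh38.p14) is shown because this gene had the smallest adjusted p of all members in the miR-629-3p comparison.
CYP1A1: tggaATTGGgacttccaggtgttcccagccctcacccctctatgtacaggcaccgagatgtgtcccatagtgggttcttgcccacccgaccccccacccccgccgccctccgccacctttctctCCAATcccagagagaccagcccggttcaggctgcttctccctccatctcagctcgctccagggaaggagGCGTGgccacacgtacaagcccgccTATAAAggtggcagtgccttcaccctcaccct
Among the 5 windows printed here, this is the one with an AHR core, GCGTG, whose first base lies 57 bases before the start. It also holds TATAAA 32 bases before the start and 2 CCAAT matches. GCGTG is present in 32.2% and TATAAA in 10.7% of all windows, so neither match sets the gene apart.

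The CYP3A genes oxidise a large share of prescribed drugs, CYP3A7 in the fetal liver and CYP3A5 in adult liver, gut and lung. With miR-629-3p both were called, in opposite directions, that of CYP3A5 fixed by the filter. CYP3A7 levels were 0.13 and -0.35 for miR-629-3p, -3.30 and -2.82 for miR-210-3p, -1.55 and -1.30 for miR-874-3p, and -2.50 and -3.25 for NC. The miR-629-3p arrays were the highest, the miR-874-3p arrays came next, and the other groups overlapped. The probe was detected on 1 array of miR-210-3p and on 1 of NC. CYP3A7 rose by a fitted log2 change of 2.76 ± 0.32 with miR-629-3p (adjusted p = 0.00774), and of 0.90 with normexp background correction. A further probe gave 3.25 ± 0.93 but did not pass (adjusted p = 0.0691), and the miR-874-3p value of 1.45 did not either (adjusted p = 0.13).
CYP3A5 was detected only on the NC arrays, at -2.41 and -1.30. On the other 6 arrays it read -5.90 to -5.08, not well above background. It was therefore at least 3.52-fold lower with miR-629-3p (adjusted p = 0.00499), at least 2.95-fold lower with miR-210-3p (adjusted p = 0.0102) and at least 2.33-fold lower with miR-874-3p (adjusted p = 0.0349). It was the 1 member called with miR-874-3p. All 3 statements rest on the same 2 NC arrays and on 1 probe, since the other CYP3A5 probe was detected on no array. The folds hold for the scanner's processed signal only. With normexp background correction the fitted log2 changes were -0.49, -0.53 and -0.59, the last no longer past the threshold (adjusted p = 0.0524). Without the detection filter the other CYP3A5 probe, which no array detected, became the one used. That probe was called in none of the 3 comparisons (adjusted p = 0.853, 0.133 and 0.935), so these values do not describe the probe above.
CYP3A5: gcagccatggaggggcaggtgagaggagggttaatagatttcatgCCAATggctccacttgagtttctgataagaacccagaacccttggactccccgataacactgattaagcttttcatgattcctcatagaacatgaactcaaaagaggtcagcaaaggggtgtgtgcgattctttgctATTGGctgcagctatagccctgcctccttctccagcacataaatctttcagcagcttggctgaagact
CYP3A7: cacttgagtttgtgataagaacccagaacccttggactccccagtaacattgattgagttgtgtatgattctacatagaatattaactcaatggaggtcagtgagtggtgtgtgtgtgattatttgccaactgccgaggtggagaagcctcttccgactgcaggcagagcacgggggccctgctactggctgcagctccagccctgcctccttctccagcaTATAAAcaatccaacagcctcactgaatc
These windows (chr7:99679997-99680246 and chr7:99735197-99735446, minus strand, GRCh38.p14) are shown because both neighbours were called with miR-629-3p, CYP3A5 in a direction fixed by the filter. They matched at 54.9% of aligned positions. CYP3A5 holds 2 CCAAT matches and no TATAAA, and CYP3A7 holds TATAAA 29 bases before the start and no CCAAT. The probes of the pair share no run of more than 7 bases, and binding of either probe to the other gene's message was not tested.

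CYP24A1, which inactivates the vitamin D hormone, read 0.60 and 0.65 for miR-629-3p, 0.66 and 0.57 for miR-210-3p, 0.00 and -0.02 for miR-874-3p, and -0.04 and 0.03 for NC. The arrays formed a higher set of 4 and a lower set of 4. These sets matched the rows of the slide, so for CYP24A1 the row and the group cannot be told apart. CYP24A1 rose by 0.63 ± 0.07 with miR-629-3p (adjusted p = 0.00767) and by 0.62 ± 0.07 with miR-210-3p (adjusted p = 0.0142), while miR-874-3p gave 0.00 (adjusted p = 0.993). A further probe gave 0.27 (adjusted p = 0.102) and 0.68 (adjusted p = 0.0213), so the miR-629-3p call depended on the probe. CYP27B1, which makes the hormone, did not pass against NC in any group.
CYP2B6, which activates cyclophosphamide, read 0.92 and 0.97 for miR-629-3p and -0.34 and 0.26 for NC, a log2 change of 0.98 ± 0.21 (adjusted p = 0.0326). A further CYP2B6 probe gave 0.22 (adjusted p = 0.171). CYP51A1, of sterol synthesis, had log2 changes of 0.14, 0.07 and 0.01 in the 3 groups, with 95% intervals within -0.29 and 0.43. CYP2S1, a P450 of airway and skin, had a value of -0.44 with miR-210-3p (95% interval -0.74 to -0.14, adjusted p = 0.0857).

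**Figure D3:**
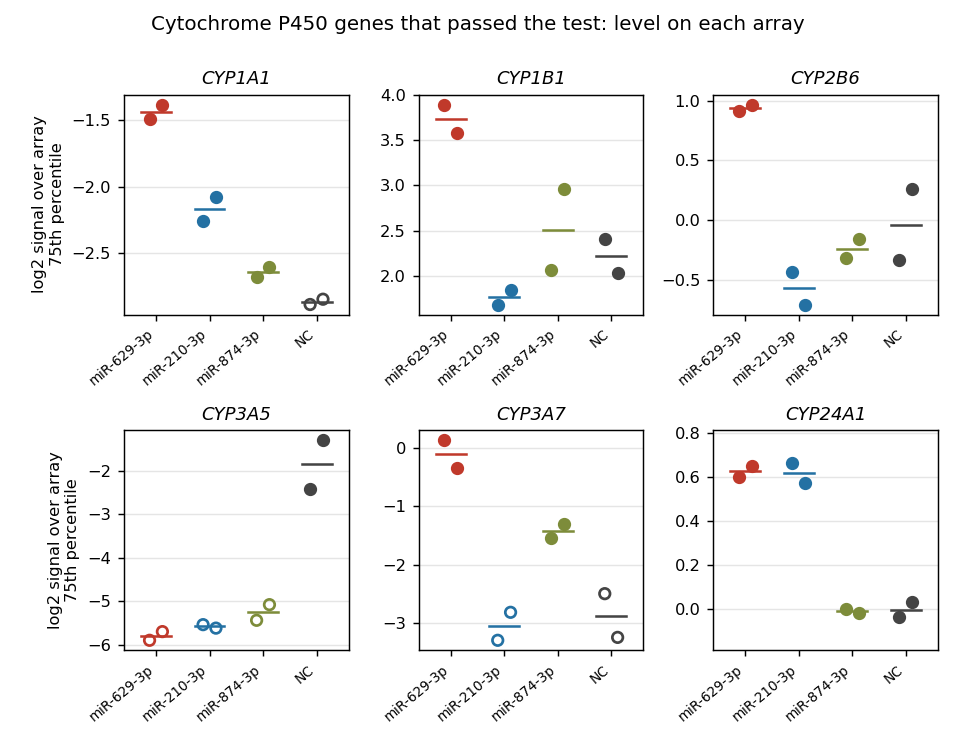
Level on each array (log2 signal over the array's 75th percentile) of the 6 CYP genes that passed against NC; circles are arrays, lines group means, and open circles mark groups whose 2 arrays did not both detect the probe. CYP3A5 is detected with NC alone (-2.41 and -1.30), and CYP24A1 separates miR-629-3p and miR-210-3p from the other groups, which lie in the other slide row.

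The ALDH family had no member that rose in any group against NC. With miR-629-3p, 2 of 15 fell, where lower calls were 6% of all genes, and with miR-210-3p 1 of 15 fell, where they were 1.93%. The family median was -0.09 for miR-629-3p, also -0.09 for miR-210-3p, and -0.13 for miR-874-3p.

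ALDH1A3, which makes retinoic acid and is known as a marker of tumour-initiating cells, had levels of 2.11 and 2.11 for miR-629-3p, 2.78 and 2.73 for miR-210-3p, 2.57 and 2.34 for miR-874-3p, and 2.70 and 3.02 for NC. The miR-629-3p arrays were the lowest of the 8, and the log2 change against NC was -0.75 ± 0.13 (adjusted p = 0.0199). ALDH7A1, which acts in lysine breakdown, fell by 0.37 on the log2 scale with miR-629-3p (SE 0.07, adjusted p = 0.0241), from 4.75 and 4.72 on the NC arrays to 4.35 and 4.38. Its 2 further probes gave 0.25 and 0.05, neither of which passed, so the fall was seen by 1 probe of 3.
ALDH4A1, of proline breakdown, read 1.84 and 1.77 for miR-210-3p and 2.32 and 2.33 for NC, a log2 change of -0.52 ± 0.09 (adjusted p = 0.0314). Its further probe gave 0.38 (adjusted p = 0.0605), opposite in sign. ALDH3A2, which oxidises fatty aldehydes, did not pass by the probe used (-0.11 with miR-629-3p, adjusted p = 0.44), whereas a further probe gave 0.49 (adjusted p = 0.0354). Signs thus disagreed for ALDH3A2, ALDH4A1 and ALDH7A1, in each case with 1 probe past the threshold.
ALDH18A1, of proline synthesis, had a value of -0.36 with miR-629-3p (adjusted p = 0.0838). ALDH2, the acetaldehyde enzyme, ALDH3A1, the stress-responsive form of cornea and of some tumours, ALDH3B1, ALDH3B2 and ALDH1L2 did not pass in any group against NC. For ALDH3A1 with miR-629-3p the 95% interval was 0.00 to 0.67.

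Among the GST genes, 2 of 11 fell with miR-629-3p, where lower calls were 6% of all genes, while with miR-210-3p 2 rose and 1 fell. Over all 5 families 4 members rose with miR-210-3p and 4 fell, where higher calls were 4.83% and lower calls 1.93% of all genes. These counts include GSTA2 and CYP3A5, which entered through 1 group alone. Without such members, 1 of 9 GST genes rose and 1 fell with miR-210-3p, and 3 of all 52 rose and 3 fell. GSTO2, an omega-class enzyme that recycles vitamin C, read 1.24 and 1.20 for miR-629-3p, 1.89 and 1.90 for miR-210-3p, 2.03 and 1.82 for miR-874-3p, and 1.76 and 2.06 for NC. Only the miR-629-3p arrays stood apart, with a log2 change of -0.69 ± 0.12 (adjusted p = 0.0209). GSTM3, a mu-class form, fell by 0.31 with miR-629-3p (SE 0.07, adjusted p = 0.0315), from 5.08 and 5.14 for NC to 4.82 and 4.79.
GSTT2B, a theta-class enzyme, read 1.55 and 1.36 for miR-210-3p, while the other 6 arrays lay between 0.31 and 0.47. It rose by 1.11 ± 0.09 (adjusted p = 0.00835). GSTT2, a near copy that RefSeq lists as a pseudogene, has its probe 248 bases away on the array's annotation and gave 0.79 (adjusted p = 0.113), and which copy each signal comes from is uncertain. GSTA2, a liver alpha-class form, was detected on both miR-210-3p arrays (-2.41 and -2.54), on 1 miR-629-3p array and on no NC array. It was tested only because both miR-210-3p arrays detected it, so the filter favoured a rise and GSTA2 adds no support to the counts. It was at least 1.33-fold higher with miR-210-3p than with NC (adjusted p = 0.0336), and with normexp background correction the fitted log2 change was 0.20.
GSTK1, the mitochondrial and peroxisomal form, read 5.72 and 5.72 for miR-210-3p and 6.13 and 6.22 for NC. It fell by 0.46 (SE 0.08, adjusted p = 0.0313), and a further probe fell by 0.53 (adjusted p = 0.0215).
GSTP1, the pi-class enzyme that dominates in many carcinomas and is often studied in platinum resistance, was bright and close to level on all 8 arrays, from 9.90 to 10.10. Its log2 change was -0.04 for miR-629-3p, -0.12 for miR-210-3p and -0.11 for miR-874-3p, and all 3 of the 95% intervals lay between -0.30 and 0.15. GSTO1, GSTM1 and GSTA4 did not pass in any group.

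Of the SULT genes 3 were tested. SULT1A4, which sulfates phenols and catecholamines, read 2.08 and 2.18 for miR-210-3p and 2.59 and 2.62 for NC, and fell by 0.47 (SE 0.08, adjusted p = 0.0364). It is nearly identical to SULT1A3, so the probe cannot be assigned to 1 of them with certainty. SULT1A2 and the brain form SULT4A1 did not pass. SULT1A1 and SULT1A3 had no probe under those names.

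**Figure D4:**
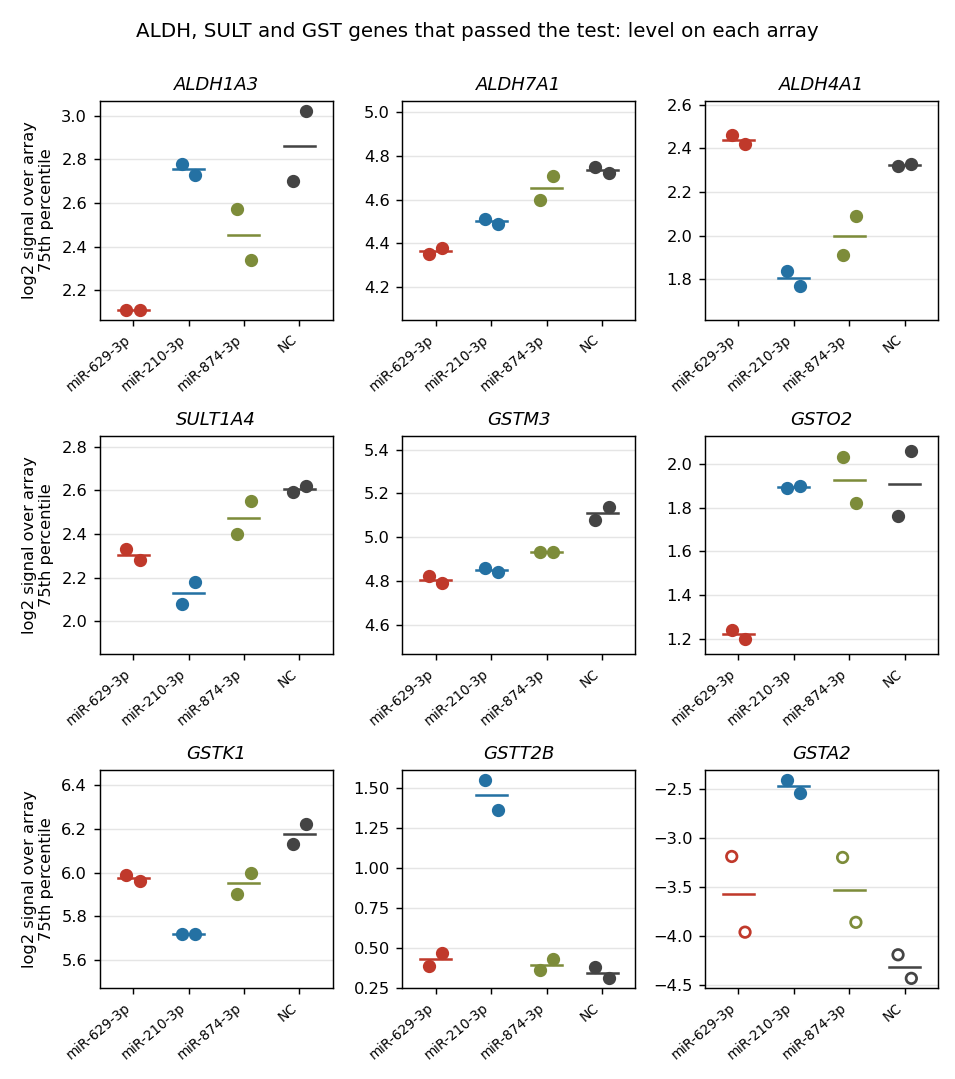
Level on each array (log2 signal over the array's 75th percentile) of the ALDH, SULT and GST genes that passed against NC with miR-629-3p or miR-210-3p; circles are arrays, lines group means, and open circles mark groups whose 2 arrays did not both detect the probe. GSTO2 is apart with miR-629-3p and GSTT2B with miR-210-3p, where it read 1.55 and 1.36.

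miR-629-3p and miR-210-3p were also compared directly, since both groups lie in the same row of the slide. All 8 arrays entered the filter and the error of this contrast. Of the 59 members 13 were higher with miR-629-3p and 6 lower (lower calls were 11.7% of all genes), together 19, where 21.7% of all genes passed. The higher ones were all 7 AKR1 genes (AKR1C1 and AKR1C4 in a direction fixed by the filter), CYP1A1, CYP1B1, CYP2B6, CYP3A7, CYP27B1 and ALDH4A1. The lower ones were CYP11A1, ALDH1A3, ALDH1B1, ALDH18A1, GSTO2 and GSTT2B, of which CYP11A1 and ALDH1B1 were named after their values were seen.
For AKR1B10 the log2 difference was 2.94 ± 0.37 (adjusted p = 0.00712), for AKR1B15 it was 2.50 ± 0.32 (adjusted p = 0.00735), and for CYP1B1 1.97 ± 0.31 (adjusted p = 0.0123). These 3 were highest with miR-629-3p and lowest with miR-210-3p on average over the groups. Over all members, both miR-210-3p arrays lay below the other 6 for 15 of 59, beside 8% of all genes, and for 4 of the 7 AKR1 genes. Both miR-629-3p arrays lay above the other 6 for 15 of 59, beside 19.8% of all genes, and below for 7, beside 13.4%. Both miR-210-3p arrays lay above for 4, beside 18.1%. The miR-874-3p arrays were apart above for 2 (4.24% of all genes) and below for 2 (9.47%), and the NC arrays above for 5 (4.03%) and below for 5 (8.36%). miR-874-3p and NC shared the other row, so for the comparisons of miR-629-3p and of miR-210-3p with NC the row and the group cannot be told apart.

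Where a gene had several tested probes, they were set against each other. With miR-629-3p, 13 of 17 further probes in 15 genes had the same sign as the probe used, and with miR-210-3p 11 of 17 did. AKR1B10, CYP1B1 and CYP3A7 each had a further probe that differed from the probe used by less than its own standard error, in both comparisons. For CYP3A7 that error was 0.93, and with miR-210-3p the signs differed (-0.19 by the probe used and 0.30 by the further one). With miR-874-3p, 10 of 17 further probes had the same sign, and AKR1B10 gave 1.12 by the probe used and 0.19 by the further one. The largest gap, 1.94, was that of CYP1B1-AS1 with miR-629-3p.

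**Figure D5:**
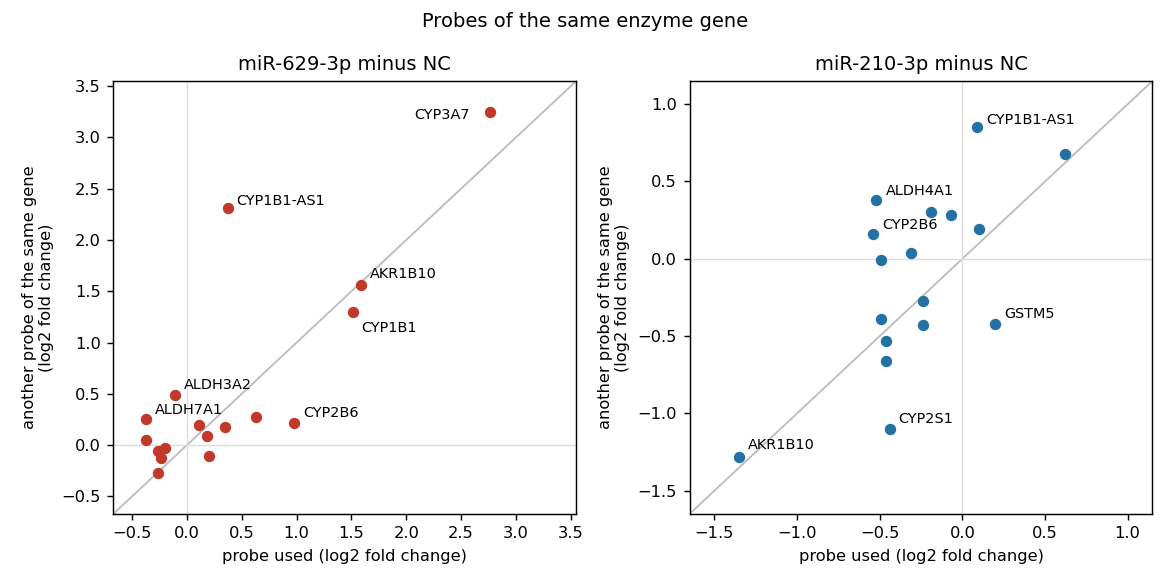
Log2 fold change against NC by the probe used (horizontal axis) and by a further tested probe of the same gene (vertical axis), for miR-629-3p (left) and miR-210-3p (right); each circle is 1 further probe and the diagonal marks equal values. With miR-629-3p, CYP2B6 (0.98 and 0.22) and CYP1B1-AS1 (0.37 and 2.31) lie far from the diagonal.

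Genes around the enzymes were read from the same fit, where higher and lower calls were 11.3% and 6% of all genes with miR-629-3p and 4.83% and 1.93% with miR-210-3p. Of 23 listed receptors and regulators 17 were tested, and NFE2L2 (the NRF2 gene), NR1I2 and NR1I3 were among those not tested. Of the 17, 3 rose with miR-629-3p and none fell. They were AHRR, the repressor that AHR induces (log2 change 0.79, adjusted p = 0.0427), CEBPB, a factor of stress and liver genes (0.46, adjusted p = 0.0181), and KEAP1, the brake on NRF2 (0.31, adjusted p = 0.0427). AHR itself had a value of 0.26 (adjusted p = 0.135) and its target TIPARP 0.19 (adjusted p = 0.129). With miR-210-3p, VDR, the vitamin D receptor under which CYP24A1 is induced, rose by 0.94 (adjusted p = 0.00728), and RARG, a retinoic acid receptor, fell by 0.79 (adjusted p = 0.049). With miR-629-3p VDR had a value of -0.09 (adjusted p = 0.438).
Of 7 electron donors, CYB5A and CYB5B, the cytochromes b5 that feed CYP enzymes, rose with miR-629-3p by 2.05 (adjusted p = 0.0114) and 0.78 (adjusted p = 0.0199). CYB5B fell with miR-210-3p by 0.81 (adjusted p = 0.0336). FDXR, the mitochondrial reductase, fell with both, by 0.68 with miR-629-3p (adjusted p = 0.0121) against 0.56 with miR-210-3p (adjusted p = 0.0334), and FDX1, its partner, rose with miR-210-3p by 0.75 (adjusted p = 0.035). POR, the main CYP reductase, had values of 0.08, 0.06 and -0.11 in the 3 groups and did not pass.
Of 11 genes of cofactor supply, SLC7A11, which imports cystine for glutathione, rose with miR-629-3p by 2.06 (adjusted p = 0.000866), UGDH, which makes the donor for glucuronides, rose by 0.33 (adjusted p = 0.0468), and PAPSS2, which makes the donor for sulfation, fell by 0.62 (adjusted p = 0.0181). None of the 11 passed with miR-210-3p. The glutathione synthesis genes GCLC and GCLM had values of 0.24 and 0.20 for miR-629-3p (adjusted p = 0.286 and 0.134).
Of 16 other phase I genes, MAOA, RDH10 and XDH rose with miR-629-3p (0.79, 0.43 and 0.98) and CBR3, a carbonyl reductase, fell by 0.76. With miR-210-3p, MAOA rose by 1.00 and ADH5 by 0.42, and the quinone reductase NQO1, a standard NRF2 target, fell by 0.50 (adjusted p = 0.0198). NQO1 had a value of 0.21 with miR-629-3p (adjusted p = 0.095). Of 9 other phase II genes TPMT, which methylates thiopurines, rose with miR-629-3p by 0.81 (adjusted p = 0.0114). No gene of these 5 lists passed with miR-874-3p.

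Calls depended on which arrays were fitted. In the settings below, the share of all genes called moved in the same direction as the count of members. CYP3A5 passed the filter only through NC arrays in each of these fits, so the filter fixed its direction and its calls below add no support. Without miR-629-3p replicate 1 or 2, the miR-629-3p comparison called 6 or 5 members in place of 16, without either miR-210-3p array 7, and without NC replicate 2 also 7. CYP1A1, CYP3A5, CYP3A7 and CYP24A1 stayed past the threshold without any 1 of those arrays. In the miR-210-3p comparison 2 members were called without either miR-629-3p array, 3 without either miR-210-3p array and 5 without NC replicate 2, while without miR-874-3p replicate 1 or 2 the count rose to 14 or 13; CYP3A5 and GSTT2B stayed called without any 1 array. Between miR-629-3p and miR-210-3p 6 to 9 members were called without 1 of those 4 arrays, in place of 19, and over all groups 5 to 9 in place of 21. CYP3A5 was no longer called with miR-874-3p without any 1 of the miR-629-3p or miR-210-3p arrays (adjusted p = 0.122 to 0.136).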

How the data were processed

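Total RNA of SAS cells was hybridised to 1-colour Agilent arrays, 2 for each of 4 groups taken from the sample labels. The deposited scanner files hold intensities that the authors extracted with Agilent Feature Extraction 11.5.1.1, which subtracts background. The authors' own table, used as an alternative, holds log2 values shifted to each array's 75th percentile, a scale found by comparison with the scanner files because it is not stated. Here spots marked as outliers were dropped (87 to 346 per array), spots of a probe averaged, log2 taken and the 75th percentile over gene probes subtracted. Probes that the software marked well above background in each array of any group were kept if no array lacked a value (508 probes, 2 of them of CYP1A2 and CYP2D6, were left out because an outlier spot left none), the brightest per gene name was used, and limma 3.58.1 in R 4.3.3 was fitted to 21283 genes and all 4 groups, with Benjamini-Hochberg adjustment over all genes. An error after ± is the standard error, and only 2 arrays per group limit precision. The fit was tested on simulated data. Probe positions are those of the array annotation (hg19), while printed sequences are on GRCh38.p14. Members, gene lists and tests were chosen with earlier results of these data known. Genes were named if among the 15 largest fitted changes past the threshold against NC, if on a fixed list of well-known enzymes, if detected in 1 group only, if their probes differed in sign with 1 called, or, where stated, after their values were seen. Slide row, slide, normalization, filters and left-out arrays are taken up in the closing section. AKR1C2, SULT1A1 and SULT1A3 were not analysed here.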

Additional observations from a re-analysis of the deposited data

How the results depend on the processing

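Enzyme genes called numbered 16 for miR-629-3p, 8 for miR-210-3p and 1 for miR-874-3p, each against NC, 19 between the first pair and 21 across all 4 groups; counts below keep this order. Leaving out 1 array in turn gave 5 to 23, 2 to 14, 0 to 3, 6 to 23 and 5 to 30. The share of all genes called changed with the array left out as well. Without the detection filter the counts were 31 (13 higher and 18 lower), 0, 0, 10 and 5. The shares of all genes were then 22.8%, 0.105%, 0.0469%, 3.48% and 2.31%. This setting also tested probes that no array detected, and whether the lower calls rest on undetected signal was not tested. An intensity trend in eBayes called 13 with miR-210-3p. The methods' t-test, after Benjamini-Hochberg adjustment, called 0 members in each comparison with NC and 3 in the fourth, and the methods' ANOVA, adjusted, called 13 across the groups. At an unadjusted p below 0.05 and at least a 2-fold change, limma called 9, 5, 4 and 11 and the methods' t-test 8, 4, 1 and 8. At an unadjusted p below 0.05 alone, the F test called 33. The single miR-874-3p call, CYP3A5, was lost (0 called) with normexp background correction, with signals floored, on probes detected on all 8 arrays and when only the 2 groups compared were fitted. The cause of these differences was not tested.

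Replicate numbers did not pair the arrays, since correlations of same-numbered deviations ran from -0.11 to 0.03. With the replicate number as a block, 9, 5, 0, 14 and 12 genes were called, and with NC numbers crossed the miR-874-3p comparison called 0. AKR1C1 with miR-629-3p (log2 change 2.33) became -0.67 without miR-629-3p replicate 2 and -3.83 without NC replicate 1, because another AKR1C1 probe was then the one used. AKR1C4 became -0.11 with signals floored. The slide as a block was not run, since all arrays share 1 slide. For dim genes the detection limit sets the smallest fold that can be stated.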

Other observations

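Of the enzyme probes, 17 were detected on exactly 1 of the 8 arrays, 4 in each mimic group and 5 in NC, and so entered no comparison. CYP4F11, which hydroxylates fatty acids and vitamin K, read 0.11 on NC replicate 2 by 1 of its probes, and the next highest reading of that probe was -4.65. CYP4F29P, a pseudogene of the same subfamily, read -0.86 on NC replicate 2 and at most -5.21 elsewhere. ALDH1A2, which makes retinoic acid, read -2.16 on miR-210-3p replicate 1 and at most -5.13 elsewhere. Whether these single readings come from the RNA or from the spot was not tested.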
